A study of Mus musculus with 24 samples.

Results

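Glycolysis turns glucose into pyruvate and lactate in the cytosol, and its genes are among the best known targets of the response to low oxygen. The 33 genes described here are 3 transporters of glucose or lactate, 15 genes of the glycolytic enzymes, 3 regulators of glycolytic flux and 12 other genes of the hypoxia response. They were taken by gene symbol from a list that was chosen with earlier results of these data known. All 33 were found among the 51697 named genes of the read count table. RNA from total RNA extracts of mouse embryonic stem (ES) cells of the F123 line, a hybrid line in which the chromatin protein CTCF carries an auxin-inducible degron, was sequenced in 24 libraries. In such cells auxin leads to destruction of the tagged protein, so the design asks what the loss of CTCF does in ES cells and in their differentiation towards neural progenitor cells.

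The 24 libraries form 12 groups of 2. Auxin was added as 1 µl of a 500 mM stock to each ml of medium, and medium with auxin was renewed every 24 h. ES cells, kept with LIF and KnockOut Serum Replacement, were taken at 0 h, without auxin, and after 24, 48 and 96 h of auxin. Differentiating cells were taken on days 2, 4 and 6 with auxin, and as controls without auxin on the same days. A day 4 and a day 6 washout group were harvested 2 days after auxin was removed on that day, so that the day 6 washout group has no control of its own age. All groups carry the degron, and auxin-treated cells without it were not analysed here. Nothing in the labels says that the 2 libraries of a group came from separate cultures, so each p-value reflects only how far these libraries spread, and that spread may be technical.

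Oxygen sets the activity of this gene set through hypoxia-inducible factors (HIFs). Prolyl hydroxylases of the EGLN family mark the HIF alpha subunits for degradation while oxygen is present. When oxygen is low the alpha subunits persist, pair with ARNT and bind the short core ACGTG or GCGTG near genes of glucose uptake, glycolysis, lactate export and the sparing of oxygen in mitochondria. ES cells are known to use glycolysis heavily, and many of its genes are lowered as pluripotent cells differentiate.

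The promoters of the genes that carry the results below are shown with this HIF core in capitals, on either strand (ACGTG and GCGTG, or CACGT and CACGC where the core lies on the other strand). A capital CACGTG, the E-box that MYC-type factors also bind, holds the core on both strands and counts as 2. The sequences are RefSeq promoters of build GRCm38.p6, from 250 bases before to 50 bases after the transcription start. The 8 genes were chosen after their values were seen: Bnip3, Egln3, Ankrd37 and Slc16a3 varied most among the ES libraries, Slc2a1 and Ldha were lower with auxin, Pgk1 stood apart in the washout cells and P4ha2 was higher with auxin.
Bnip3, chr7:138909457-138909756, minus strand: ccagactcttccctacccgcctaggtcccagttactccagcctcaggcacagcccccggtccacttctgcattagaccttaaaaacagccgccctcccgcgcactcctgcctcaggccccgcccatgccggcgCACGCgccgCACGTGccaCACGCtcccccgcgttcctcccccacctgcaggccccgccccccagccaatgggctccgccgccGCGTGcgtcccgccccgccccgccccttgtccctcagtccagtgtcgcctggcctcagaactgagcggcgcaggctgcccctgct
Egln3, chr12:54203825-54204124, minus strand: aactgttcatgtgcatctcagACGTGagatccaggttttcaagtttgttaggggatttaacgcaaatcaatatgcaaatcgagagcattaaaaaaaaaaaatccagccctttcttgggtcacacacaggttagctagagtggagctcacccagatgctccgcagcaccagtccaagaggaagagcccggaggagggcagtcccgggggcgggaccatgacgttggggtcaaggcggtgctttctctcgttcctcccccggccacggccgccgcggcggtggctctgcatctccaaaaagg
Ankrd37, chr8:45999801-46000100, minus strand: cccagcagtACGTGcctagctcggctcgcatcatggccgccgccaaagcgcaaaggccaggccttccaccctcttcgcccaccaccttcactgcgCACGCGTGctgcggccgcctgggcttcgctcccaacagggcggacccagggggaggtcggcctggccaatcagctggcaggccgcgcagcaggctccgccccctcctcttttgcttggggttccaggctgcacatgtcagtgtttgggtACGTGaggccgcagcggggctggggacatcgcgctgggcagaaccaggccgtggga
Slc16a3, chr11:120948817-120949116, plus strand: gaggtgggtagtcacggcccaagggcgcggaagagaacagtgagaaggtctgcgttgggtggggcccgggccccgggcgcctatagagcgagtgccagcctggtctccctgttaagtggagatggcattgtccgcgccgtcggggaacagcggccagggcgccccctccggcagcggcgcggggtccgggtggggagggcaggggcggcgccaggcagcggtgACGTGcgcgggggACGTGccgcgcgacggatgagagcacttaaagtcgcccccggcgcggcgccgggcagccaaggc
Slc2a1, chr4:119108495-119108794, plus strand: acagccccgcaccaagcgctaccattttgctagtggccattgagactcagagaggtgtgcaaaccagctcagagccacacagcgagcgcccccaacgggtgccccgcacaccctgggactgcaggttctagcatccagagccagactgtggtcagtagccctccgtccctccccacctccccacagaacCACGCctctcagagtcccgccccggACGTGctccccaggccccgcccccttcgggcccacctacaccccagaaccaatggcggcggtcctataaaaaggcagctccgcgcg
Ldha, chr7:46845554-46845853, plus strand: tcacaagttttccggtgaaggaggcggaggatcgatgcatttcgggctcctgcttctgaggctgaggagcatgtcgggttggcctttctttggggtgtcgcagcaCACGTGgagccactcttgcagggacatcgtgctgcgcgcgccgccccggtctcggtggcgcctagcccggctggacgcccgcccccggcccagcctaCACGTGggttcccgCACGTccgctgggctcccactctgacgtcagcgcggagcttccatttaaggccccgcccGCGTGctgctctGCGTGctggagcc
Pgk1, chrX:106186850-106187149, plus strand: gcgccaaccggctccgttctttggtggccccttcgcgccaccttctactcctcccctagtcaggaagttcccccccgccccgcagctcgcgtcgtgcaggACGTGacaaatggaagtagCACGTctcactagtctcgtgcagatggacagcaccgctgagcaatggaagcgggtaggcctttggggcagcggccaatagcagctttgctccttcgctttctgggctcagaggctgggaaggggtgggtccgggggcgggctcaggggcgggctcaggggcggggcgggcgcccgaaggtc
P4ha2, chr11:54100674-54100973, plus strand: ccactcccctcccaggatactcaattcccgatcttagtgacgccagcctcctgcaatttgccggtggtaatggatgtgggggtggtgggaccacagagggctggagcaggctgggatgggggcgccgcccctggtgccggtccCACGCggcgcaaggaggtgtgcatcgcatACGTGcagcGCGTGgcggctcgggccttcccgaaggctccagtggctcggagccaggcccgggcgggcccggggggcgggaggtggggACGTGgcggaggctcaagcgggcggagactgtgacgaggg

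Promoter sequence was found for 31 of the 33 genes, in 52 entries, since some genes have several starts. Slc2a3 and Ndrg1 had no entry. At least 1 core was present in 78.8% of the members' entries, against 43.8% of all 32851 entries of the same length. At least 2 cores were present in 57.7% of the members' entries, against 20.6% of all entries, and 7.15% of all entries held CACGTG. In the entries shown, Ldha had 7 cores, Bnip3 5, Ankrd37 and P4ha2 4 each, Slc16a3, Slc2a1 and Pgk1 2 each and Egln3 1. Of the genes not shown, Hk1 had 5 and Pfkfb3 and Pfkp 4 each in the entry with the most cores. Another entry of Ldha had 2 cores, another of Hk1 0 and another of Pfkfb3 1. A match of letters is a description of these windows and does not show binding.

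Totals ran from 24696374 to 72048935 counts per library, and the 4 ES libraries of replicate 1 were the shallowest, at 24696374 to 29909368. Every member had at least 20 counts in every library. Values below are CPM, counts relative to the library's total after TMM scaling, and in each pair replicate 1 comes first. The 33 genes took up 1.94% of all counts in ES 0 h replicate 2 and 1.74% in ES 24 h replicate 2, against 0.66% to 1.13% in the other 22 libraries. Markers of the labelled cell states were present: 8 ES cell markers summed to 3082 to 4391 CPM in ES libraries and to 469 to 487 CPM in day 6 controls, and 8 neural progenitor markers to 32.6 to 57.2 CPM in ES libraries and to 247 to 248 CPM in day 6 controls. Neuron markers did not separate these states, since 6 of them summed to 64.3 to 286 CPM in ES libraries and 239.9 to 251.2 CPM in day 6 controls. Ctcf transcripts, which do not check a degron that acts on protein, were at 211 to 287 CPM in libraries with auxin and 172 to 230 CPM in those without.

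Several libraries stood apart. In ES 0 h and ES 24 h cells the 2 replicates differed strongly in these genes, as described first below. In the 4 washout libraries 59.6% to 60.5% of the counts from 1 to 20 were even, against 65.9% to 72.2% in the other differentiation libraries. In ES replicate 1 this share was 75.5%, 78%, 76.7% and 74.2% at 0, 24, 48 and 96 h. ES replicate 2 had 67.2%, 66.2%, 67.3% and 71% at the same times. Day 6 control replicate 2 was below replicate 1 in 31 of 33 members, with a median log2 ratio of −0.14. Some values rest on shared sequence. Of the 33 genes, 12 have annotated copies or neighbours with at least 95% identity over at least 200 bases, among them Gapdh with 78, and exons of 13 members overlap those of another gene. The strand setting of the counting is not given in the sources used here, so reads of such pairs cannot be told apart; the overlap is largest for Ankrd37, at 22.7% of its exonic bases, and Bnip3, at 22.3%.

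Per kilobase of annotated exon, the levels spanned a wide range. Gapdh ranked first with a median of 263 CPM per kb over the 24 libraries, followed by Aldoa at 229.9, Pkm at 181.5, Slc2a3 at 155.7, Pgk1 at 142.9 and Ldha at 139.0 CPM per kb. The 3 flux regulators and the hypoxia genes outside the pathway lay lower, from 38.2 CPM per kb for P4ha1 down to 1.12 for Ankrd37. Among isoforms, median levels were Pfkl at 41.3 CPM per kb against Pfkm at 18.9 and Pfkp at 5.14, Hk2 at 26.6 against Hk1 at 6.22, and Aldoa at 229.9 against Aldoc at 3.78 CPM per kb. The exon length of Pfkp, 13401 bases, includes 748 bases shared with Pitrm1 on the opposite strand.

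**Figure D1:**
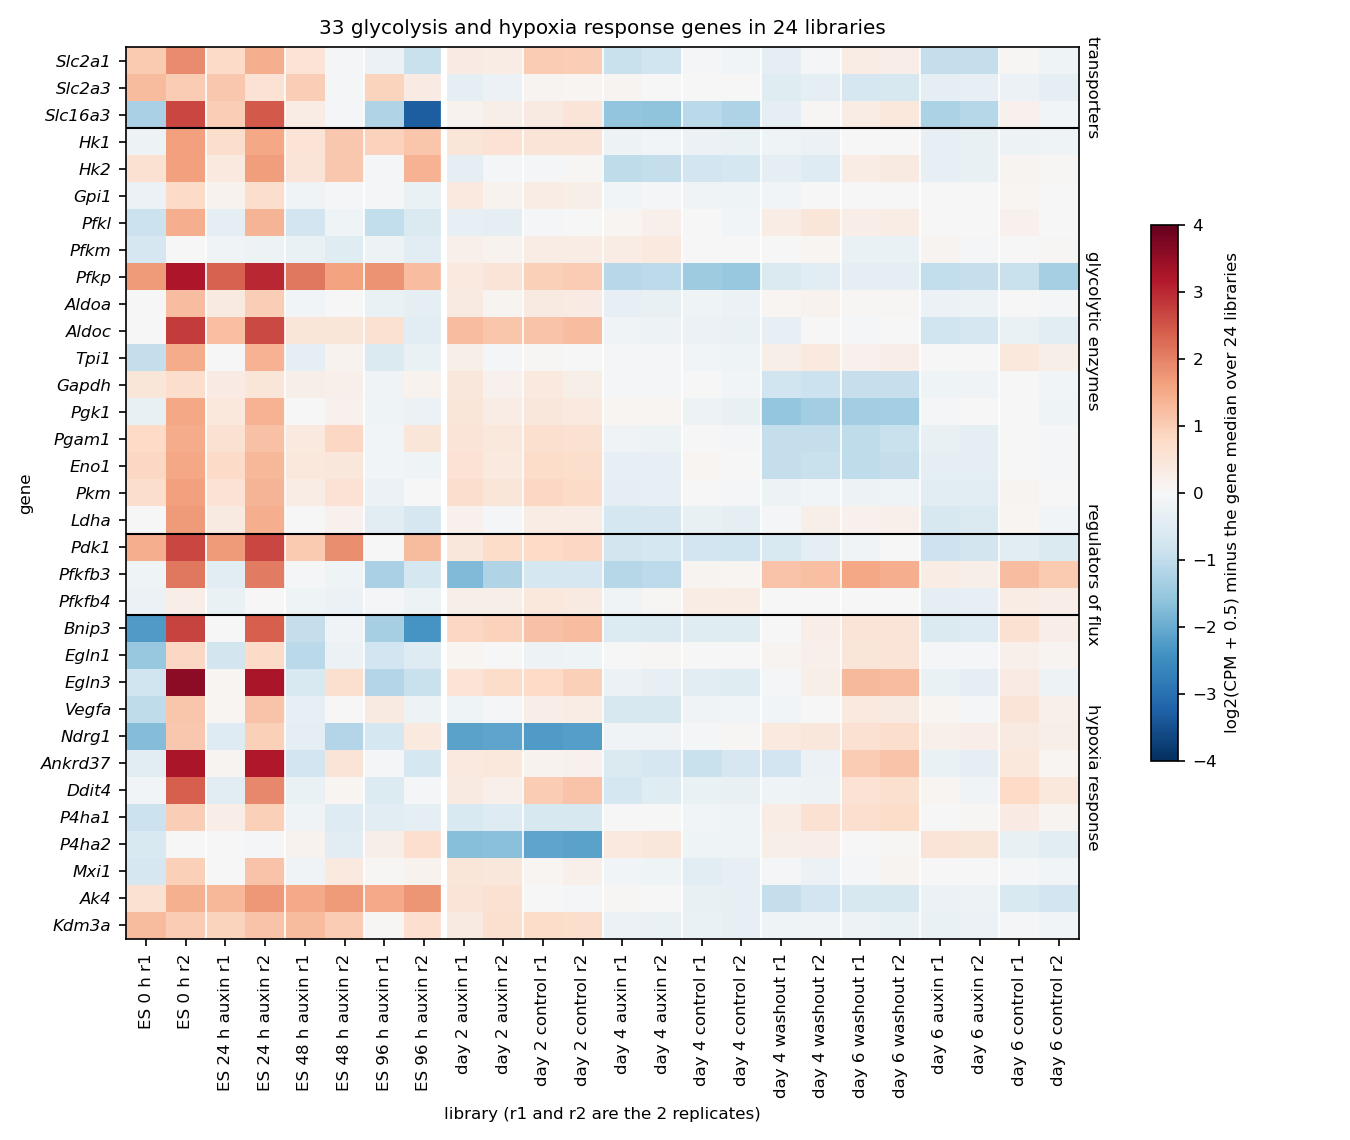
Each cell is log2(CPM + 0.5) of a gene (row, grouped by role) in a library (column), minus the gene's median over 24 libraries; red is above and blue below that median. ES 0 h replicate 2 is the highest of the 24 libraries for 24 of the 33 genes, and Pgk1, Gapdh, Pgam1 and Eno1 are lowest in the washout columns.

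In ES cells at 0 h and 24 h, replicates of the same group differed widely in these genes. At 0 h, 31 of 33 members were higher in replicate 2 than in replicate 1, and 22 were at least 2-fold higher, against 6.93% of all 20361 genes. The median log2 ratio of replicate 2 over replicate 1 was 1.63 for the members and 0.028 for all genes. At 24 h it was 0.95 for the members and 0.038 for all genes, with 30 members higher and 15 at least 2-fold higher (4.41% of all genes). By role, the 0 h median was 2.23 for the 12 hypoxia response genes, 1.26 for the 15 enzymes, 1.22 for the 3 flux regulators and 0.84 for the 3 transporters. In bulk RNA, fewer cells of a kind and less RNA per cell cannot be told apart. These ratios are a description, since the difference between these replicates was known when the members were chosen. The shares of all genes beside them are therefore no test of the set. Nor can a test be made of a single library against another. The replicate 2 libraries were deeper at all 4 times, with at least 51686150 counts, against at most 29909368 in replicate 1, and the medians at 48 h and 96 h were 0.15 and 0.097. Marker sums also differed between the 0 h libraries, at 3195 against 4391 CPM for the 8 ES cell markers, 376.2 against 844.9 CPM for 8 endoderm, 180.4 against 286.4 CPM for 8 fibroblast or feeder, 32.57 against 57.19 CPM for 8 neural progenitor, 213.9 against 274.1 CPM for 6 neuron and 176.2 against 214.3 CPM for 8 blood or endothelium markers, each given as the lower and the higher library. These sums are not assigned to replicate 1 or 2, so they give no direction. The part of depth, of the share of even counts and of these markers in the replicate difference was not tested.

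Among the hypoxia response genes the 0 h replicates lay far apart. Bnip3, a mitophagy receptor of the outer mitochondrial membrane, had 4.18 and 146 CPM at 0 h, 22.1 and 119 CPM at 24 h, 11.3 and 20.1 CPM at 48 h and 8.47 and 3.93 CPM at 96 h. Egln3, an oxygen-sensing prolyl hydroxylase that HIF itself induces, had 11.1 and 241 CPM at 0 h, 20.98 and 194 CPM at 24 h, 12.7 and 30.9 CPM at 48 h and 8.38 and 10.3 CPM at 96 h. Ankrd37, a small ankyrin-repeat protein gene, had 1.14 and 20.8 CPM at 0 h, 1.92 and 20.05 CPM at 24 h, 0.803 and 2.70 CPM at 48 h and 1.62 and 0.861 CPM at 96 h. All 3 were thus high in replicate 2 at 0 h and 24 h and low in the other 6 ES libraries. Ndrg1, a stress and differentiation gene, had 18.6 and 134 CPM at 0 h, 44 and 122 CPM at 24 h, 48.9 and 27.5 CPM at 48 h and 38.8 and 82.1 CPM at 96 h. Ddit4, an inhibitor of mTORC1 signalling, had 37.6 and 213 CPM at 0 h, 29.3 and 155 CPM at 24 h, 33.9 and 43.2 CPM at 48 h and 27.3 and 38.3 CPM at 96 h. Vegfa, the growth factor of blood vessels, had 39.8 and 174 CPM at 0 h, 84.5 and 178 CPM at 24 h, 64 and 79.4 CPM at 48 h and 103 and 69.4 CPM at 96 h. In these genes too replicate 2 of 0 h and 24 h stood above the rest, and 0 h replicate 1 was the lowest of the 8 libraries in Ndrg1 and Vegfa. Egln1, the main oxygen sensor of the HIF pathway, had 37.3 and 191 CPM at 0 h, 63.9 and 180.3 CPM at 24 h, 50.95 and 90.2 CPM at 48 h and 63.1 and 75 CPM at 96 h. P4ha1, a collagen prolyl hydroxylase subunit, had 86.1 and 314 CPM at 0 h, 191 and 308 CPM at 24 h, 144 and 109 CPM at 48 h and 114 and 122 CPM at 96 h. Ak4, an adenylate kinase of the mitochondrial matrix, had 189 and 330.3 CPM at 0 h, 311 and 415 CPM at 24 h, 349 and 404 CPM at 48 h and 352 and 421 CPM at 96 h. Kdm3a, a histone demethylase, had 305 and 261 CPM at 0 h, 239 and 279 CPM at 24 h, 310.5 and 257 CPM at 48 h and 133 and 202 CPM at 96 h. Ak4 was lowest in 0 h replicate 1 and had no peak in the other 0 h library. Kdm3a and Slc2a3 were the 2 members that were lower in 0 h replicate 2 than in replicate 1.

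The transporters differed from one another. Slc2a1, the basal glucose transporter GLUT1, had 552 and 986 CPM at 0 h, 451 and 732 CPM at 24 h, 390.3 and 254 CPM at 48 h and 227 and 144 CPM at 96 h. Slc2a3, the high-affinity glucose transporter GLUT3, had 2729 and 2298 CPM at 0 h, 2401 and 1672 CPM at 24 h, 2218 and 1100.4 CPM at 48 h and 2078 and 1419 CPM at 96 h. Slc16a3, the lactate exporter MCT4, had 22.4 and 357 CPM at 0 h, 111 and 306 CPM at 24 h, 69.1 and 53.5 CPM at 48 h and 23.95 and 5.17 CPM at 96 h. Slc16a3 was 15.6-fold higher in 0 h replicate 2 than in replicate 1 (with 0.5 CPM added to both), and the log2 ratio of Slc2a3 was −0.25.

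Among the enzymes, the 0 h log2 ratio of replicate 2 over replicate 1 ran from 0.23 for Gapdh to 2.78 for Aldoc. Hk1 and Hk2 code for hexokinases, which trap glucose by phosphorylation. Hk1 had 46.2 and 166 CPM at 0 h, 87.1 and 158 CPM at 24 h, 78.3 and 112 CPM at 48 h and 102 and 116 CPM at 96 h. Hk2, the inducible isoform, had 241 and 490.4 CPM at 0 h, 206 and 509.8 CPM at 24 h, 224 and 332 CPM at 48 h and 153 and 412 CPM at 96 h. Aldoa and Aldoc code for aldolases, and Aldoc, the brain isoform, had 12.6 and 89.4 CPM at 0 h, 28.9 and 79.6 CPM at 24 h, 17.3 and 17.4 CPM at 48 h and 18.97 and 9.06 CPM at 96 h. Aldoa had 658 and 1574 CPM at 0 h, 854 and 1333 CPM at 24 h, 621 and 679.5 CPM at 48 h and 556 and 505 CPM at 96 h. Both aldolase genes were highest in the same pair of libraries. Pgk1, phosphoglycerate kinase, had 264 and 935 CPM at 0 h, 433 and 836 CPM at 24 h, 324 and 359 CPM at 48 h and 282 and 269.6 CPM at 96 h. Eno1, enolase, had 737 and 1219.6 CPM at 0 h, 714 and 1046 CPM at 24 h, 563 and 575 CPM at 48 h and 388 and 370.1 CPM at 96 h. Ldha, which makes lactate from pyruvate, had 459 and 1509 CPM at 0 h, 596 and 1269.5 CPM at 24 h, 462 and 523 CPM at 48 h and 339.8 and 291 CPM at 96 h. In all 3 the highest value was that of 0 h replicate 2 and the next that of 24 h replicate 2. Pdk1, the kinase that shuts pyruvate out of the mitochondrial cycle, had 179 and 419 CPM at 0 h, 211 and 416 CPM at 24 h, 134 and 238 CPM at 48 h and 65.1 and 155 CPM at 96 h. Pfkfb3, which makes the allosteric activator of phosphofructokinase, had 19.5 and 96.1 CPM at 0 h, 16.02 and 95.2 CPM at 24 h, 20.6 and 19.5 CPM at 48 h and 8.66 and 13.3 CPM at 96 h. Both peaked in the same 2 libraries. In all, 28 of 33 members were higher in both 0 h replicate 2 and 24 h replicate 2 than in the other 6 ES libraries; the exceptions were Slc2a3, Pfkm, P4ha2, Ak4 and Kdm3a.

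**Figure D2:**
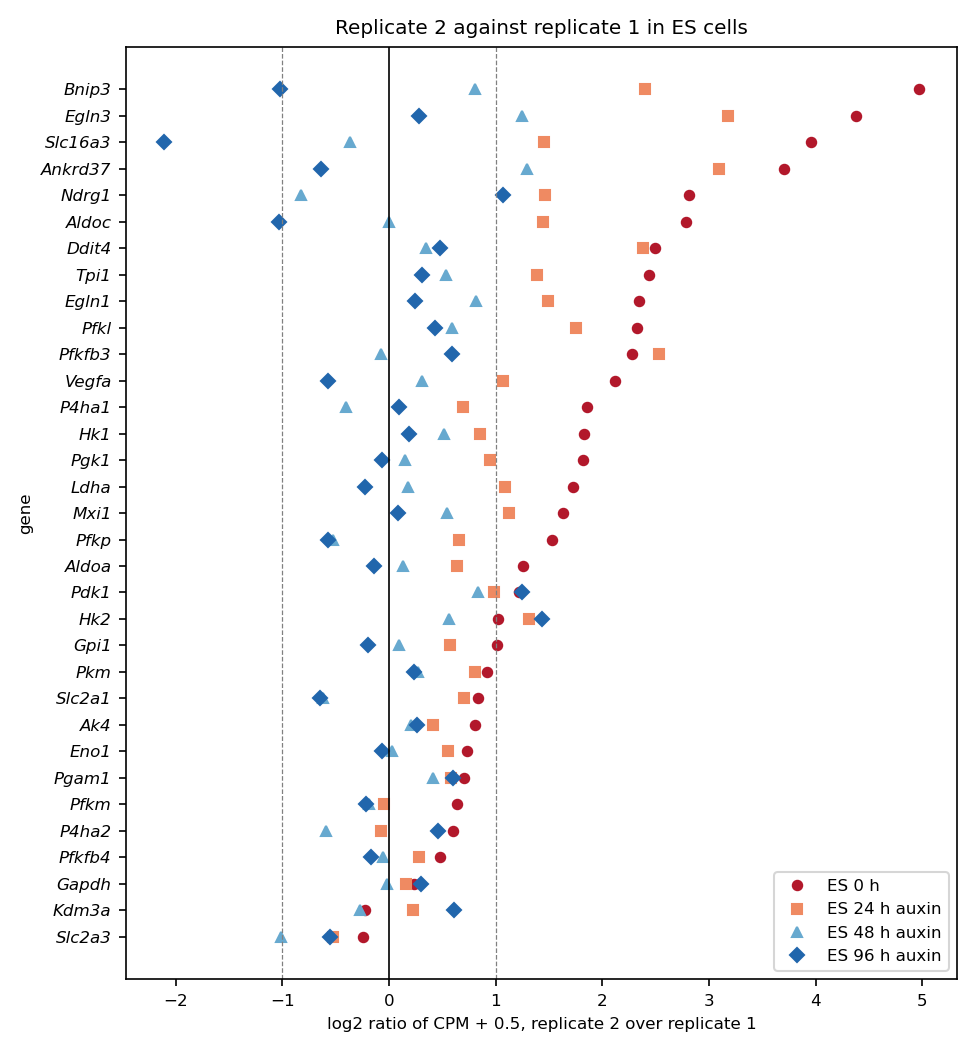
Points give the log2 ratio of CPM + 0.5 in replicate 2 over replicate 1 for each gene (rows, ordered by the 0 h ratio) at each time of auxin in ES cells; dashed lines mark a 2-fold difference. At 0 h the points of 31 genes lie right of 0, up to 4.97 for Bnip3, while the 96 h points scatter around 0 with a median of 0.097.

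In the fit of the 8 ES libraries without a replicate block, no member passed the test for an effect of auxin. In edgeR's quasi-likelihood test on the 8 ES libraries with Benjamini-Hochberg adjustment, 0 of 33 were called at 24, 48 or 96 h against 0 h, and the same test called 0% of all 20361 genes at each time. At an unadjusted p below 0.05 there were 0 members at 24 h, 3 lower at 48 h, and 1 higher and 16 lower at 96 h. The median log2 fold change of the members was 0.0077 at 24 h, −0.77 at 48 h and −1.08 at 96 h, and −0.014 to −0.029 for all genes. Same-numbered ES libraries deviated from their group means together, with r from 0.18 to 0.74 over the 6 pairs of groups, and with the replicate number as a block 0 members were called at 24 h and 48 h and 6 lower at 96 h. Without the low-count filter, 10 were lower at 48 h and 17 at 96 h. DESeq2 called 3 members lower at 96 h, and the fit of all 24 libraries called 2 lower at 48 h and 1 higher and 15 lower at 96 h. The shares of all genes at the unadjusted threshold and in these other settings are not given here. These counts therefore describe the settings and are not read as a result about the members.

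Slc2a1 came nearest at 96 h, with 227 and 144 CPM, against 552 and 986 CPM at 0 h and a log2 fold change of −2.05 ± 0.40 (adjusted p = 0.26). Both 96 h libraries were below both 0 h libraries. Eno1 followed at −1.38 ± 0.28 (adjusted p = 0.26), also without overlap, and Pkm, the pyruvate kinase gene, at −1.36 ± 0.35 (adjusted p = 0.34). Libraries of 96 h and 0 h did not overlap in 14 of 33 members, against 33.2% of all genes. The members' median hinged on the 0 h libraries. Without 0 h replicate 1 it was −1.59, with 31 of 33 fold changes negative, and without 0 h replicate 2 it was 0.051, with 15 negative. Slc2a1 was −2.43 and −1.58 in those 2 fits and Eno1 −1.70 and −0.97, while Bnip3 was −4.58 and 0.55.

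Day 2 controls were lower than ES 0 h cells in 8 members and higher in 1, in the fit of all 24 libraries. The background was 18.2% of all genes called, 10.3% higher and 7.91% lower. The 8 lower genes were Ndrg1 at −2.56 ± 0.60 (adjusted p = 0.0062), Pfkfb3 at −2.11 ± 0.60 (adjusted p = 0.021), P4ha2 at −1.87 ± 0.19 (adjusted p = 2.8e-06), Pfkp at −1.67 ± 0.34 (adjusted p = 0.002), Pdk1 at −1.39 ± 0.39 (adjusted p = 0.018), Hk2 at −1.21 ± 0.40 (adjusted p = 0.042), Ak4 at −1.11 ± 0.19 (adjusted p = 0.00059) and Slc2a3 at −1.07 ± 0.24 (adjusted p = 0.0042). Pfkm, the muscle isoform of phosphofructokinase, was higher, at 77.9 and 77 CPM on day 2 against 39.8 and 62.04 CPM at 0 h. Libraries of the 2 groups did not overlap in 15 of 33 members, against 55.4% of all genes. P4ha2, a collagen prolyl hydroxylase subunit, had 39.4 and 38.7 CPM in day 2 controls, against 113 and 172 CPM in ES 0 h cells.

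ES cell markers were lower with these genes, 7 of 8, at a sum of 2084 to 2131 CPM in day 2 controls, against 3195 to 4391 CPM at 0 h, with none at 0. Of 6 blood or endothelium markers tested, 3 were lower and 0 higher, while all 8 summed to 278.6 to 291.7 CPM on day 2, against 176.2 to 214.3 CPM at 0 h, with 1 at 0. Of the neural progenitor markers 2 of 8 were higher and 0 lower, and of the neuron markers 2 of 6 were higher and 1 lower. The part of these markers in the result was not tested. The members' median turned on which 0 h library was used. Without 0 h replicate 1 the median log2 fold change was −1.3, with 31 of 33 negative. Without 0 h replicate 2 it was 0.393, with 13 negative. Bnip3 was −0.56 with both 0 h libraries and not called, and 3.63 above 0 h replicate 1 alone. Slc16a3 was −2.24 without replicate 1 and 1.77 without replicate 2. Slc2a3, P4ha2 and Ak4 were lower with either 0 h library left out. Without replicate 1 they stood at −0.94, −2.14 and −1.46, and without replicate 2 at −1.17, −1.52 and −0.64. The calls of Hk2, Pfkm, Pdk1, Pfkfb3 and Ndrg1 were lost with either day 2 control library left out.

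On day 4 without auxin, most of the gene set was below its day 2 level. Of 33 members, 24 were lower and 5 higher on day 4 in the fit of the 16 differentiation libraries, against 24.8% of all genes lower, 27.2% higher and 52.1% called in all. The members' median log2 fold change was −0.61 and that of all genes 0.0084. By role, 13 of 15 enzymes, 2 of 3 transporters and 8 of 12 hypoxia response genes fell, together with Pdk1. The libraries did not overlap in 32 of 33 members, against 79.1% of all genes. All 29 calls held with each library left out in turn, while the fit of all 24 libraries called 2 higher and 8 lower. ES cell markers fell with these genes, 8 of 8, to 779.7 to 787.9 CPM on day 4, against 2084 to 2131 CPM on day 2, with none at 0, and 8 of 8 neural progenitor and 8 of 8 endoderm markers rose; their part in the result was not tested.

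Pfkp, the platelet isoform of phosphofructokinase, fell most, with 129 and 136 CPM on day 2, 24.3 and 23.2 on day 4 and 35.3 and 26.2 CPM on day 6; its day 4 change was −2.46 ± 0.10 (adjusted p = 4.9e-12). Bnip3 fell by 1.69 on the log2 scale (SE 0.10), Slc16a3 by 1.60, Pdk1 by 1.59, Aldoc by 1.47, Ddit4 by 1.36, Egln3 by 1.36 and Ankrd37 by 1.28, with adjusted p from 3.4e-10 to 0.00025. Slc2a1 had 260.2 and 250.4 CPM on day 4, against 546 and 532 CPM on day 2. The large enzymes fell less, Pkm by 0.82, Eno1 by 0.69, Pgk1 by 0.67 and Gapdh by 0.36. The 5 members that rose on day 4 were Ndrg1 at 2.30 ± 0.072, P4ha2 at 1.99 ± 0.060, Pfkfb3 at 0.83 ± 0.12, P4ha1 at 0.52 ± 0.083 and Egln1 at 0.21 ± 0.056. Ndrg1 and P4ha2 were at their lowest in the whole series in day 2 cells.

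By day 6 without auxin, a group of members was higher again. Between day 6 and day 4 controls 17 members were higher and 3 lower, against 13.6% and 13.1% of all genes (26.7% in all). The hypoxia response genes made up 9 of the 17, and 5 were enzymes. Ankrd37 rose by 1.45 ± 0.24 (adjusted p = 0.00021), Slc16a3 by 1.22 ± 0.12 (adjusted p = 1.1e-06), Pfkfb3 by 1.07 ± 0.11 (adjusted p = 2.4e-06) and Bnip3 by 0.96 ± 0.10 (adjusted p = 2.4e-06). Ddit4 rose by 0.93 ± 0.11, Hk2 by 0.82 ± 0.085, Egln3 by 0.57 ± 0.14 and Vegfa by 0.50 ± 0.085. The libraries did not overlap in 26 of 33 members, against 67.5% of all genes. Ak4, Slc2a3 and P4ha2 were lower, at −0.36, −0.28 and −0.18. Slc2a1, Gapdh, Eno1 and Pgam1 had fold changes from −0.034 to 0.032 and were not called. Neuron markers moved with these genes: all 6 were higher on day 6, at a sum of 239.9 to 251.2 CPM, against 36.1 to 37.9 CPM on day 4, and none was at 0 in either group. Fibroblast or feeder markers were also higher, 6 of 8 and 0 lower, at 750.7 to 782.2 CPM on day 6, against 363.8 to 371.8 CPM on day 4. All 8 ES cell markers were lower, at 468.6 to 486.6 CPM on day 6, against 779.7 to 787.9 CPM on day 4. Of 8 endoderm markers 3 were higher and 5 lower, and of 5 blood or endothelium markers tested 1 was higher and 3 lower. Of 8 neural progenitor markers 3 were higher and 3 lower. The part of these lists in the result was not tested. Without day 6 control replicate 1, which was the higher of the pair in 31 of 33 members, 10 were higher and 3 lower, and 7 calls were lost, Egln3, Ldha and P4ha1 among them (adjusted p 0.064 to 0.27). The fit of all 24 libraries called 0.

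With auxin, more members were called lower than higher on each day in the fit of the 16 differentiation libraries, while without day 4 control replicate 1 the day 4 count was 5 each way. On day 2, 9 of 33 were lower with auxin and 4 higher, against 8.43% and 9.84% of all genes (18.3% in all). On day 4, 10 were lower and 6 higher, against 11.8% each way (23.5%). On day 6, 18 were lower and 2 higher, against 15.2% and 14% of all genes (29.2%). The members' median log2 fold change was −0.15, 0.035 and −0.30 on days 2, 4 and 6, and 0.023, 0 and 0.0079 over all genes. In the fit of all 24 libraries, 0, 0 and 3 members were called on the 3 days. Libraries did not overlap in 26, 30 and 26 of 33 members on days 2, 4 and 6, against 49.2%, 63.9% and 67.9% of all genes. Eno1, Pfkfb3, Slc2a1 and Vegfa were called lower on all 3 days, although the day 2 call of Eno1 and the day 6 call of Vegfa did not hold with single libraries left out, and Ak4 and P4ha2 were called higher on all 3. Hk1, Gpi1, Aldoa, Gapdh, Ndrg1, P4ha1 and Kdm3a were called on no day.

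Of the 3 transporters, which carry glucose and lactate, 2 were lower with auxin on each day. These were Slc2a1 with Slc2a3 on day 2 and with Slc16a3 on days 4 and 6. Over all genes 8.43%, 11.8% and 15.2% were lower on days 2, 4 and 6. Slc2a1 had 334 and 328 CPM in day 2 auxin cells, against 546 and 532 CPM in day 2 controls. Slc2a1 then had 143 and 153 CPM with auxin and 260.2 and 250.4 CPM in controls on day 4, and 138 and 138 CPM with auxin and 275 and 238 CPM in controls on day 6. Every auxin library was below every control library of its day, with log2 fold changes of −0.69 ± 0.080, −0.79 ± 0.080 and −0.91 ± 0.081 (adjusted p = 1.2e-05, 1.4e-06 and 2.2e-07). Slc2a1 was also lower in day 4 than in day 2 controls, at −1.06 ± 0.080. Slc16a3 had 61.4 and 66.1 CPM in day 2 auxin cells, against 70.9 and 80.7 CPM in day 2 controls. Slc16a3 then had 18.1 and 18.1 CPM with auxin and 26.1 and 23.3 CPM in controls on day 4, and 23.04 and 24.8 CPM with auxin and 63.2 and 51.2 CPM in controls on day 6. Its auxin effect was −0.24 ± 0.12 on day 2, which was not called, −0.45 ± 0.12 on day 4 and −1.27 ± 0.12 on day 6 (adjusted p = 5.1e-07), and the difference of the day 6 and day 4 effects was −0.82 ± 0.17 (adjusted p = 0.011). The day 4 call was lost without day 4 control replicate 1 or either day 4 auxin library (adjusted p = 0.13, 0.076 and 0.076). On day 6 both auxin libraries lay below both controls. Slc2a3 had 876 and 961 CPM in day 2 auxin cells, against 1215 and 1182 CPM in day 2 controls. Slc2a3 then had 1206 and 1132 CPM with auxin and 1145 and 1124 CPM in controls on day 4, and 877 and 895 CPM with auxin and 967 and 885 CPM in controls on day 6. It was lower with auxin on day 2 only, at −0.37 ± 0.058 (adjusted p = 0.00024), and its day 4 effect was above its day 2 effect by 0.41 ± 0.081 (adjusted p = 0.0041).

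Among the flux regulators, Pfkfb3 had 6.18 and 9.30 CPM in day 2 auxin cells, against 13.4 and 13.5 CPM in day 2 controls. Pfkfb3 then had 9.78 and 10.4 CPM with auxin and 23.7 and 23.5 CPM in controls on day 4, and 27.1 and 25.7 CPM with auxin and 52.03 and 46.5 CPM in controls on day 6. The auxin libraries were below the controls on each day, at −0.78 ± 0.13, −1.23 ± 0.12 and −0.91 ± 0.11 (adjusted p = 0.00036, 1e-06 and 9.5e-06). Pfkfb4, the related enzyme of the same reaction, was lower on day 4 at −0.36 ± 0.090 and on day 6 at −0.68 ± 0.092, with 6.18 and 6.20 CPM with auxin and 10.002 and 9.66 CPM in day 6 controls. Its day 4 call was lost without either day 4 control library or day 4 auxin replicate 1 (adjusted p = 0.051, 0.051 and 0.12). Pdk1 had 89.6 and 108 CPM in day 2 auxin cells, against 114 and 115 CPM in day 2 controls. Pdk1 then had 39.3 and 39.5 CPM with auxin and 38.1 and 36.9 CPM in controls on day 4, and 36.6 and 38.8 CPM with auxin and 48.5 and 43.6 CPM in controls on day 6. Only its day 6 difference, −0.30 ± 0.093, was called (adjusted p = 0.023), and it missed the threshold without day 6 control replicate 1 (adjusted p = 0.19) or either day 6 auxin library (adjusted p = 0.15 and 0.057).

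Among the glycolytic enzymes, on days 2, 4 and 6, 3, 5 and 7 of 15 were lower and 0, 3 and 0 higher. Over all genes 8.43%, 11.8% and 15.2% were lower on these days, and 9.84%, 11.8% and 14% higher. Ldha had 518 and 444 CPM in day 2 auxin cells, against 563 and 568 CPM in day 2 controls. Ldha then had 285 and 288 CPM with auxin and 377 and 355 CPM in controls on day 4, and 297 and 307 CPM with auxin and 482 and 427 CPM in controls on day 6. It was lower at −0.36 ± 0.083 on day 4 and −0.60 ± 0.083 on day 6. The day 4 call of Ldha was lost without day 4 control replicate 1 (adjusted p = 0.053). Pkm was lower on the same days, at −0.31 ± 0.068 and −0.50 ± 0.068. Eno1 had 625 and 543 CPM in day 2 auxin cells, against 699 and 679.6 CPM in day 2 controls. Eno1 then had 335 and 330.4 CPM with auxin and 435 and 411 CPM in controls on day 4, and 315 and 319 CPM with auxin and 422 and 399.8 CPM in controls on day 6. Its effects were −0.23, −0.36 and −0.38, and that of day 2 missed the threshold without day 2 control replicate 1, day 2 control replicate 2 or day 2 auxin replicate 2 (adjusted p = 0.15, 0.062 and 0.051). Hk2 had 121 and 151 CPM in day 2 auxin cells, against 154 and 163 CPM in day 2 controls. Hk2 then had 77.6 and 80.8 CPM with auxin and 92.03 and 97.2 CPM in controls on day 4, and 125 and 128 CPM with auxin and 170.2 and 163 CPM in controls on day 6. Pfkl, the main phosphofructokinase isoform here, was lower on day 2 at −0.30 ± 0.074. That call was lost without day 2 control replicate 2 (adjusted p = 0.069). Hk2 was lower on day 4 at −0.26 ± 0.085, a call that was lost without any 1 of the 4 libraries (adjusted p 0.076 to 0.2), and on day 6 at −0.40 ± 0.084.

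Several enzyme genes did not pass the test or were higher. Hk1 had 74.8 and 79.2 CPM in day 2 auxin cells, against 76.8 and 76.6 CPM in day 2 controls. Hk1 then had 46.3 and 49.1 CPM with auxin and 44.8 and 43.99 CPM in controls on day 4, and 42.5 and 42.9 CPM with auxin and 45.9 and 46.8 CPM in controls on day 6. Its groups lay close together on each day, and it was not called. Aldoa had 857 and 718 CPM in day 2 auxin cells, against 865 and 847 CPM in day 2 controls. Aldoa then had 538 and 548 CPM with auxin and 596 and 566 CPM in controls on day 4, and 568 and 577 CPM with auxin and 659 and 630.1 CPM in controls on day 6, and its effect on day 6 was −0.18 ± 0.068 (adjusted p = 0.054). Aldoc had 29.5 and 27.4 CPM in day 2 auxin cells, against 27.9 and 29.9 CPM in day 2 controls. Aldoc then had 11.03 and 10.6 CPM with auxin and 10.4 and 10.2 CPM in controls on day 4, and 6.81 and 7.64 CPM with auxin and 10.2 and 9.01 CPM in controls on day 6. It was lower on day 6 at −0.42 ± 0.11 (adjusted p = 0.0091), where both control libraries were above the auxin libraries, and the call was lost without day 6 control replicate 1 or day 6 auxin replicate 1 (adjusted p = 0.097 and 0.1). Pgk1 had 448 and 393 CPM in day 2 auxin cells, against 442 and 423 CPM in day 2 controls. Pgk1 then had 339.8 and 338 CPM with auxin and 277 and 261 CPM in controls on day 4, and 307 and 319 CPM with auxin and 323 and 287 CPM in controls on day 6. It was higher on day 4, by 0.33 ± 0.074, as were Pfkm by 0.35 ± 0.067 and Pfkp by 0.39 ± 0.10. The Pgk1 call was lost without day 4 control replicate 2 (adjusted p = 0.058), and that of Pfkp without day 4 control replicate 2 or day 4 auxin replicate 2 (adjusted p = 0.092 and 0.065). Pfkp was lower on day 2 at −0.53 ± 0.097, and the difference of the 2 effects was 0.92 ± 0.14 (adjusted p = 0.00048). Pitrm1, whose exons overlap Pfkp, held 16.5% to 85.3% of the reads of the pair over the 24 libraries, and its part in the Pfkp values was not tested.

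Among the 12 hypoxia response genes, 3, 1 and 6 were lower with auxin on days 2, 4 and 6, and 4, 3 and 2 higher. Over all genes 8.43%, 11.8% and 15.2% were lower on these days, and 9.84%, 11.8% and 14% higher. The 1 lower on day 4 and the 2 higher on day 6 were near those shares. Bnip3 had 39.6 and 42.5 CPM in day 2 auxin cells, against 50.2 and 52.1 CPM in day 2 controls. Bnip3 then had 14.8 and 14.5 CPM with auxin and 15.6 and 15.8 CPM in controls on day 4, and 14.5 and 15.2 CPM with auxin and 33.9 and 26.7 CPM in controls on day 6. The groups overlapped on no day. The day 2 difference was −0.31 ± 0.097, lost without either day 2 control, the day 4 difference −0.11 ± 0.10 was not called, and day 6 was −1.04 ± 0.10 (adjusted p = 6.8e-07). The difference of the day 6 and day 4 effects was −0.93 ± 0.14 (adjusted p = 0.0011). Vegfa had 72.1 and 78.4 CPM in day 2 auxin cells, against 97.1 and 98.1 CPM in day 2 controls. Vegfa then had 51.5 and 51.5 CPM with auxin and 72.8 and 74.96 CPM in controls on day 4, and 85.03 and 76.2 CPM with auxin and 115 and 93.2 CPM in controls on day 6. Its effects were −0.36 ± 0.085, −0.53 ± 0.086 and −0.38 ± 0.085; the last missed the threshold without day 6 control replicate 1 or day 6 auxin replicate 2 (adjusted p = 0.08 and 0.057). Ddit4 had 52.2 and 47.1 CPM in day 2 auxin cells, against 83.3 and 89.8 CPM in day 2 controls. Ddit4 then had 24.9 and 28.8 CPM with auxin and 33.4 and 33 CPM in controls on day 4, and 42.8 and 36.5 CPM with auxin and 70.7 and 54.7 CPM in controls on day 6. It was lower on day 2 at −0.79 ± 0.11 and on day 6 at −0.67 ± 0.11.

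The oxygen sensors differed from each other. Egln1 had 112 and 109 CPM in day 2 auxin cells, against 93.4 and 94.5 CPM in day 2 controls. Egln1 then had 106 and 110.1 CPM with auxin and 107 and 107 CPM in controls on day 4, and 105 and 103 CPM with auxin and 122 and 115 CPM in controls on day 6. It was higher with auxin on day 2, by 0.25 ± 0.056, and lower on day 6, at −0.20 ± 0.056. The day 2 call was lost with either day 2 control library left out (adjusted p = 0.071 and 0.059), and the day 6 call without day 6 control replicate 1 or day 6 auxin replicate 2 (adjusted p = 0.13 and 0.11). Egln3 had 28.9 and 32.8 CPM in day 2 auxin cells, against 34.3 and 38.8 CPM in day 2 controls. Egln3 then had 16.7 and 15.7 CPM with auxin and 14.2 and 13.99 CPM in controls on day 4, and 16.4 and 15.3 CPM with auxin and 24.6 and 17.2 CPM in controls on day 6. It was called lower on day 6 only, at −0.40 ± 0.14, and not without day 6 control replicate 1 (adjusted p = 0.53) or either day 6 auxin library (adjusted p = 0.078 and 0.18). Ankrd37 had 2.38 and 2.47 CPM in day 2 auxin cells, against 1.93 and 1.98 CPM in day 2 controls. Ankrd37 then had 0.972 and 0.880 CPM with auxin and 0.702 and 0.879 CPM in controls on day 4, and 1.34 and 1.21 CPM with auxin and 2.49 and 1.82 CPM in controls on day 6. Its day 6 difference was −0.76 ± 0.22, at levels near 1 to 2 CPM, and it missed the threshold without day 6 control replicate 1 (adjusted p = 0.18) or either day 6 auxin library (adjusted p = 0.054 and 0.11).

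P4ha2 and Ak4 were higher with auxin on all 3 days. P4ha2 had 52.4 and 53.7 CPM in day 2 auxin cells, against 39.4 and 38.7 CPM in day 2 controls. P4ha2 then had 224 and 234 CPM with auxin and 154 and 154 CPM in controls on day 4, and 248 and 241 CPM with auxin and 140.1 and 129 CPM in controls on day 6. Auxin libraries were above controls on each day, by 0.45 ± 0.059, 0.57 ± 0.057 and 0.85 ± 0.057 (adjusted p = 4e-05, 1.2e-06 and 8.1e-09). Ak4 had 174 and 189 CPM in day 2 auxin cells, against 121 and 119 CPM in day 2 controls. Ak4 then had 127 and 125 CPM with auxin and 99.8 and 97.7 CPM in controls on day 4, and 104 and 108 CPM with auxin and 80.1 and 72.7 CPM in controls on day 6. It was higher by 0.61 ± 0.066, 0.35 ± 0.066 and 0.46 ± 0.066. In ES cells at 96 h over 0 h these genes stood at 0.73 ± 0.29 and 0.57 ± 0.29 and did not pass the test (adjusted p = 0.51 and 0.64). P4ha1, the sister subunit gene of P4ha2, had 104 and 111 CPM in day 2 auxin cells, against 99.9 and 101 CPM in day 2 controls. P4ha1 then had 158 and 156 CPM with auxin and 144 and 139.5 CPM in controls on day 4, and 159 and 162 CPM with auxin and 198 and 169 CPM in controls on day 6. It was not called on any day. Mxi1, an antagonist of MYC, was higher on day 2 by 0.34 ± 0.078 and on day 4 by 0.26 ± 0.079. The Mxi1 call was lost on day 2 without day 2 control replicate 1 (adjusted p = 0.093), and on day 4 without day 4 control replicate 1 or either day 4 auxin library (adjusted p = 0.23, 0.16 and 0.069). Ndrg1 had 13.9 and 14.2 CPM in day 2 auxin cells, against 12.6 and 13.3 CPM in day 2 controls. Ndrg1 then had 56.98 and 56.7 CPM with auxin and 61.5 and 64.6 CPM in controls on day 4, and 72.3 and 76.2 CPM with auxin and 81.8 and 74.03 CPM in controls on day 6. Kdm3a had 164 and 198 CPM in day 2 auxin cells, against 211 and 208 CPM in day 2 controls. Kdm3a then had 109.5 and 107 CPM with auxin and 106 and 102 CPM in controls on day 4, and 106 and 108 CPM with auxin and 123 and 118 CPM in controls on day 6. Neither Ndrg1 nor Kdm3a was called.

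The auxin effect itself was compared between days. It was higher on day 4 than on day 2 in 5 members and lower in 0, against 4.56% and 5.34% of all genes (9.9% in all): Pfkp, Pfkl, Pfkm, Slc2a3 and Pgk1. From day 4 to day 6 it was lower in 4 and higher in 0, against 2.19% and 2.05% of all genes (4.24% in all): Bnip3, Slc16a3, Tpi1 and Pfkm. With each library left out in turn, 3 of the 5 and 1 of the 4, Bnip3, held in every fit. The count for day 4 minus day 2 was 8 without day 2 auxin replicate 1, 13 without day 2 auxin replicate 2 and 3 without day 4 control replicate 2. That for day 6 minus day 4 was 1 or 2 without any 1 of the 8 libraries except day 6 control replicate 2.

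Cell state markers moved with auxin as well. The 8 ES cell markers summed to 881 to 893 CPM in day 6 auxin cells, against 469 to 487 CPM in day 6 controls, with 7 higher and 1 lower. All 6 neuron markers were lower with auxin on day 6, at a sum of 23.46 to 23.71 CPM, against 239.9 to 251.2 CPM in controls, and 7 of 8 neural progenitor markers were lower and 1 higher, at 152 to 160 CPM with auxin against 247 to 248 CPM in controls. Of 8 fibroblast or feeder markers 6 were lower and 1 higher, and none of these markers was at 0. The part of these shifts in the values of the glycolysis and hypoxia genes was not tested. Each call was also tried with each library left out in turn. On day 2, 8 of 13 calls held in every such fit, on day 4, 8 of 16, and on day 6, 14 of 20, and without day 4 control replicate 1 the day 4 count was 5 higher and 5 lower.

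**Figure D3:**
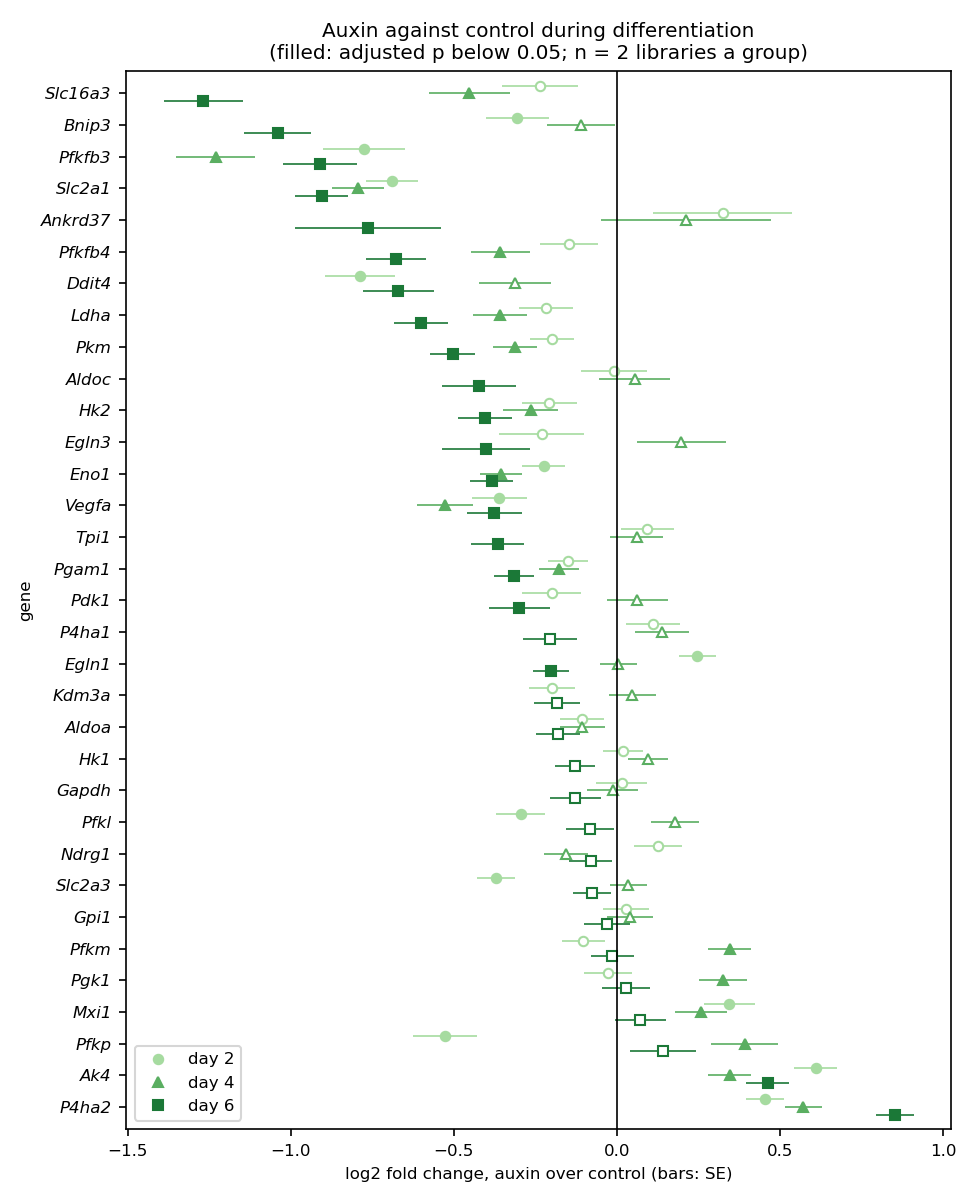
Points give each gene's log2 fold change of auxin over control on days 2, 4 and 6 with its standard error, ordered by the day 6 value; filled points passed an adjusted p of 0.05 in the fit of 16 differentiation libraries. Slc16a3, Bnip3, Pfkfb3 and Slc2a1 lie lowest on day 6, at −1.27 to −0.91, and P4ha2 and Ak4 lie right of 0 on all 3 days.

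After auxin was washed out, most members lay above their level in day 6 auxin cells, while 4 abundant glycolytic enzymes lay below it. In day 6 washout cells, 22 of 33 members were higher and 8 lower than in day 6 auxin cells, against 20.4% and 19.9% of all genes (40.3% in all). In day 4 washout cells, 17 were higher and 6 lower, against 17.3% each way (34.6%). Libraries did not overlap in 30 of 33 members in each of these comparisons, against 75.5% of all genes for day 6 washout and 70.4% for day 4 washout. Both comparisons share the day 6 auxin libraries. Day 6 washout cells were harvested 2 days later than the day 6 auxin and control cells. In them washout and 2 more days of differentiation cannot be told apart. Against day 6 controls, day 6 washout cells had 15 members higher and 8 lower (18.5% and 18.4% of all genes, 36.9% in all), and day 4 washout cells 4 higher and 11 lower (16.8% and 17.1%, 33.9%). In the fit of all 24 libraries, 1 higher and 3 lower were called for day 6 washout and 2 lower for day 4 washout against auxin.

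Slc16a3, Slc2a1, Pfkfb3, Bnip3 and Ldha were well above day 6 auxin cells in both washout groups. Slc16a3 had 43.3 and 57.98 CPM in day 4 washout cells and 69.1 and 74.9 CPM in day 6 washout cells, against 23.04 and 24.8 CPM in day 6 auxin cells, with log2 fold changes of 1.10 ± 0.12 and 1.61 ± 0.12 (adjusted p = 3.4e-06 and 3.5e-08). Slc2a1 had 209.7 and 256 CPM in day 4 washout cells and 329.6 and 322 CPM in day 6 washout cells, against 138 and 138 CPM in day 6 auxin cells, at 0.78 ± 0.080 and 1.26 ± 0.081. Both transporters were above every day 6 auxin library. Pfkfb3 had 49.4 and 51.5 CPM in day 4 washout cells and 65.5 and 61.5 CPM in day 6 washout cells, against 27.1 and 25.7 CPM in day 6 auxin cells, at 0.95 ± 0.11 and 1.28 ± 0.11. Bnip3 had 22.03 and 26.5 CPM in day 4 washout cells and 31.6 and 31.6 CPM in day 6 washout cells, against 14.5 and 15.2 CPM in day 6 auxin cells, at 0.73 ± 0.10 and 1.10 ± 0.10. Ldha had 448 and 536 CPM in day 4 washout cells and 517 and 524 CPM in day 6 washout cells, against 297 and 307 CPM in day 6 auxin cells, at 0.72 ± 0.083 and 0.80 ± 0.083. In these 5 genes the day 4 washout cells did not differ from day 6 controls past the threshold, apart from Bnip3, which was lower at −0.31 ± 0.099, a call lost without day 4 washout replicate 1 or day 6 control replicate 1.

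Egln3 and Ankrd37 were higher in day 6 washout cells than in both day 6 auxin and day 6 control cells. Egln3 had 18.5 and 23.2 CPM in day 4 washout cells and 48.6 and 47.1 CPM in day 6 washout cells, against 16.4 and 15.3 CPM in day 6 auxin cells. The day 6 washout value was above day 6 auxin by 1.61 ± 0.14 and above day 6 controls by 1.20 ± 0.13 (adjusted p = 2.1e-06). Ankrd37 had 0.795 and 1.40 CPM in day 4 washout cells and 3.98 and 4.44 CPM in day 6 washout cells, against 1.34 and 1.21 CPM in day 6 auxin cells, with 1.74 ± 0.22 over auxin for day 6 washout. For day 4 washout it was −0.19 ± 0.24 over auxin and not called, and below day 6 controls at −0.95 ± 0.23. Ddit4 had 36 and 35.1 CPM in day 4 washout cells and 60.6 and 63.2 CPM in day 6 washout cells, against 42.8 and 36.5 CPM in day 6 auxin cells. Vegfa had 73.99 and 81.6 CPM in day 4 washout cells and 106 and 104 CPM in day 6 washout cells, against 85.03 and 76.2 CPM in day 6 auxin cells. Hk2 had 124 and 112 CPM in day 4 washout cells and 197 and 202 CPM in day 6 washout cells, against 125 and 128 CPM in day 6 auxin cells. All 3 were higher in day 6 washout cells, by 0.66, 0.39 and 0.67, and none of them was called for day 4 washout against auxin. The hydroxylase genes P4ha1 and Egln1 were higher in both washout groups. P4ha1 had 194 and 238 CPM in day 4 washout cells and 253 and 263 CPM in day 6 washout cells, against 159 and 162 CPM in day 6 auxin cells, and Egln1 had 116 and 122 CPM in day 4 washout cells and 150.4 and 152 CPM in day 6 washout cells, against 105 and 103 CPM in day 6 auxin cells. Both were called higher in each washout group, P4ha1 at 0.45 and 0.70 and Egln1 at 0.22 and 0.56.

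The changes of other members varied in size and direction. Pdk1 had 42.3 and 50.9 CPM in day 4 washout cells and 59.3 and 64.9 CPM in day 6 washout cells, against 36.6 and 38.8 CPM in day 6 auxin cells. Ndrg1 had 82.4 and 87.2 CPM in day 4 washout cells and 96.02 and 103 CPM in day 6 washout cells, against 72.3 and 76.2 CPM in day 6 auxin cells. Aldoc had 9.65 and 12.5 CPM in day 4 washout cells and 11.7 and 12.1 CPM in day 6 washout cells, against 6.81 and 7.64 CPM in day 6 auxin cells. These 3 were called higher in both washout groups, by 0.74, 0.44 and 0.74 in day 6 washout cells and 0.33, 0.21 and 0.64 in day 4 washout cells. Pfkp was higher as well, at 0.46 and 0.60, and Pfkm was lower in day 6 washout cells at −0.29. Hk1 had 47.2 and 44.98 CPM in day 4 washout cells and 52.3 and 53.9 CPM in day 6 washout cells, against 42.5 and 42.9 CPM in day 6 auxin cells, and Aldoa had 707 and 733 CPM in day 4 washout cells and 685 and 694 CPM in day 6 washout cells, against 568 and 577 CPM in day 6 auxin cells. Hk1 was called for day 6 washout only and Aldoa for both. Kdm3a had 114 and 115 CPM in day 4 washout cells and 111 and 107 CPM in day 6 washout cells, against 106 and 108 CPM in day 6 auxin cells and was not called. Slc2a3 had 812 and 853 CPM in day 4 washout cells and 712 and 719 CPM in day 6 washout cells, against 877 and 895 CPM in day 6 auxin cells, and was lower in day 6 washout cells at −0.29 ± 0.058. Ak4 and P4ha2 were lower in both washout groups than in day 6 auxin cells, Ak4 with 63.8 and 71.7 CPM in day 4 washout cells and 78.3 and 78.2 CPM in day 6 washout cells and log2 fold changes over day 6 auxin of −0.63 ± 0.066 and −0.42 ± 0.066, and P4ha2 with 200.4 and 208 CPM in day 4 washout cells and 173 and 177 CPM in day 6 washout cells, at −0.24 ± 0.057 and −0.47 ± 0.057.

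Pgk1, Gapdh, Pgam1 and Eno1 went the other way. Pgk1 had 109 and 121 CPM in day 4 washout cells and 123 and 126 CPM in day 6 washout cells, against 307 and 319 CPM in day 6 auxin cells and 323 and 287 CPM in day 6 controls. All 4 washout libraries were below every other library of the series, at −1.42 ± 0.076 and −1.32 ± 0.075 over auxin (adjusted p = 1.3e-09 and 1.5e-09). Eno1 had 216 and 227 CPM in day 4 washout cells and 206 and 213 CPM in day 6 washout cells, against 315 and 319 CPM in day 6 auxin cells, at −0.50 and −0.58. Gapdh, glyceraldehyde-3-phosphate dehydrogenase, stood at −0.65 and −0.75, and Pgam1, phosphoglycerate mutase, at −0.59 and −0.60. Their pathway neighbours Aldoa, Tpi1, Pkm and Ldha were called higher over auxin in both groups, at 0.25 to 0.80.

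These 4 genes all have near-identical processed copies in the annotation, and the counts of some copies differed in the same libraries. The 77 genes in the count table that are near-identical to Gapdh held 6.83% to 7.63% of the reads of Gapdh and its copies in washout libraries, against 1.62% to 2.29% in day 6 auxin and control libraries. Of the 3 copies of Eno1, Gm5855 had 279 to 344 counts in washout libraries and 13 to 24 in day 6 auxin and control libraries. The more abundant Gm4735 had 634 to 910 counts in washout libraries, against 2037 to 3302 in day 6 auxin and control libraries. Eno1b had 3315 to 4008 counts in washout libraries, against 3885 to 6576. The Pgk1 copies held at most 0.17% of the reads. Of the 21 members without near-identical annotated copies or neighbours, 16 were higher and 3 lower in day 6 washout than day 6 auxin cells. Of the 12 with them 6 were higher and 5 lower, and over all genes 20.4% were higher and 19.9% lower. These 12 include Pfkp and Ndrg1, whose near-identical genes are not pseudogenes. The part of the copies, and that of the lower share of even counts in these libraries, in the 4 low values was not tested. Fibroblast or feeder markers were also higher, at a sum of 1389 to 1432 CPM in day 6 washout and 839 to 879 CPM in day 4 washout cells, against 677 to 681 CPM in day 6 auxin and 751 to 782 CPM in day 6 control cells, with 7 of 8 higher and 1 lower in day 6 washout over auxin and none at 0. Of 8 endoderm markers 6 were higher and 0 lower, at 1426 to 1442 CPM against 1231 to 1254 CPM in day 6 auxin cells. Of the ES cell markers, 7 of 8 were lower and 1 higher in day 6 washout over auxin, at 632.2 to 655.8 CPM against 881.3 to 893 CPM, and 4 were lower and 0 higher in day 4 washout over auxin, at 711.5 to 734.5 CPM. Of the 6 neuron markers 5 were higher and 0 lower over auxin in each washout group, at 44.72 to 46.83 CPM in day 6 washout and 38.56 to 40.45 CPM in day 4 washout cells, against 23.46 to 23.71 CPM in day 6 auxin cells. Against day 6 controls, at 239.9 to 251.2 CPM, all 6 were lower in both washout groups. Neural progenitor markers were lower than in day 6 controls too, 7 of 8 in day 6 washout and 6 of 8 in day 4 washout cells, with 1 higher in each. Their sums differed less, at 230.3 to 246.3 CPM in day 6 washout and 218.7 to 226 CPM in day 4 washout cells. Day 6 controls stood at 246.6 to 248.1 CPM. The part of these markers in the results was not tested.

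Against day 6 controls, the members farthest down in day 4 washout cells were Pgk1 at −1.40, Ankrd37 at −0.95, Pgam1 at −0.91, Eno1 at −0.88, Ddit4 at −0.81, Gapdh at −0.77, Hk2 at −0.49 and Vegfa at −0.41. The 4 that were higher were P4ha2 at 0.61, Pfkp at 0.60, Pfkl at 0.32 and P4ha1 at 0.24. Of the members named here, Ankrd37, Pfkl and P4ha1 lost their call with single libraries left out. In day 6 washout cells Egln3, at 1.20, Ankrd37, at 0.98, Pfkp, at 0.74, P4ha1, at 0.50, Pdk1, at 0.44, P4ha2, at 0.38, and Pfkfb3, at 0.37, were farthest above day 6 controls. Pgk1, Eno1, Pgam1 and Gapdh were lower there at −1.29, −0.97, −0.92 and −0.88, and Slc2a3, Pfkm, Pfkfb4 and Pkm at −0.37 to −0.23. The day 6 washout calls of Pfkfb3, Pfkfb4 and Pkm were lost with single libraries left out. Members did not overlap between the groups in 20 of 33 cases for day 4 washout and 27 for day 6 washout, against 69.3% and 73.3% of all genes.

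Leaving out single libraries changed few of the calls over day 6 auxin. For day 6 washout 28 of 30 calls held in every such fit, and Pfkm and Tpi1 did not (adjusted p 0.063 to 0.12). For day 4 washout 18 of 23 held, and Tpi1, Pdk1, Egln1, Egln3 and Ndrg1 did not (adjusted p 0.054 to 0.3), all of them without day 4 washout replicate 2. Against day 6 controls, 14 of 23 and 9 of 15 held for day 6 and day 4 washout, and without day 6 control replicate 2 the day 6 washout count was 8 higher and 7 lower.

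**Figure D4:**
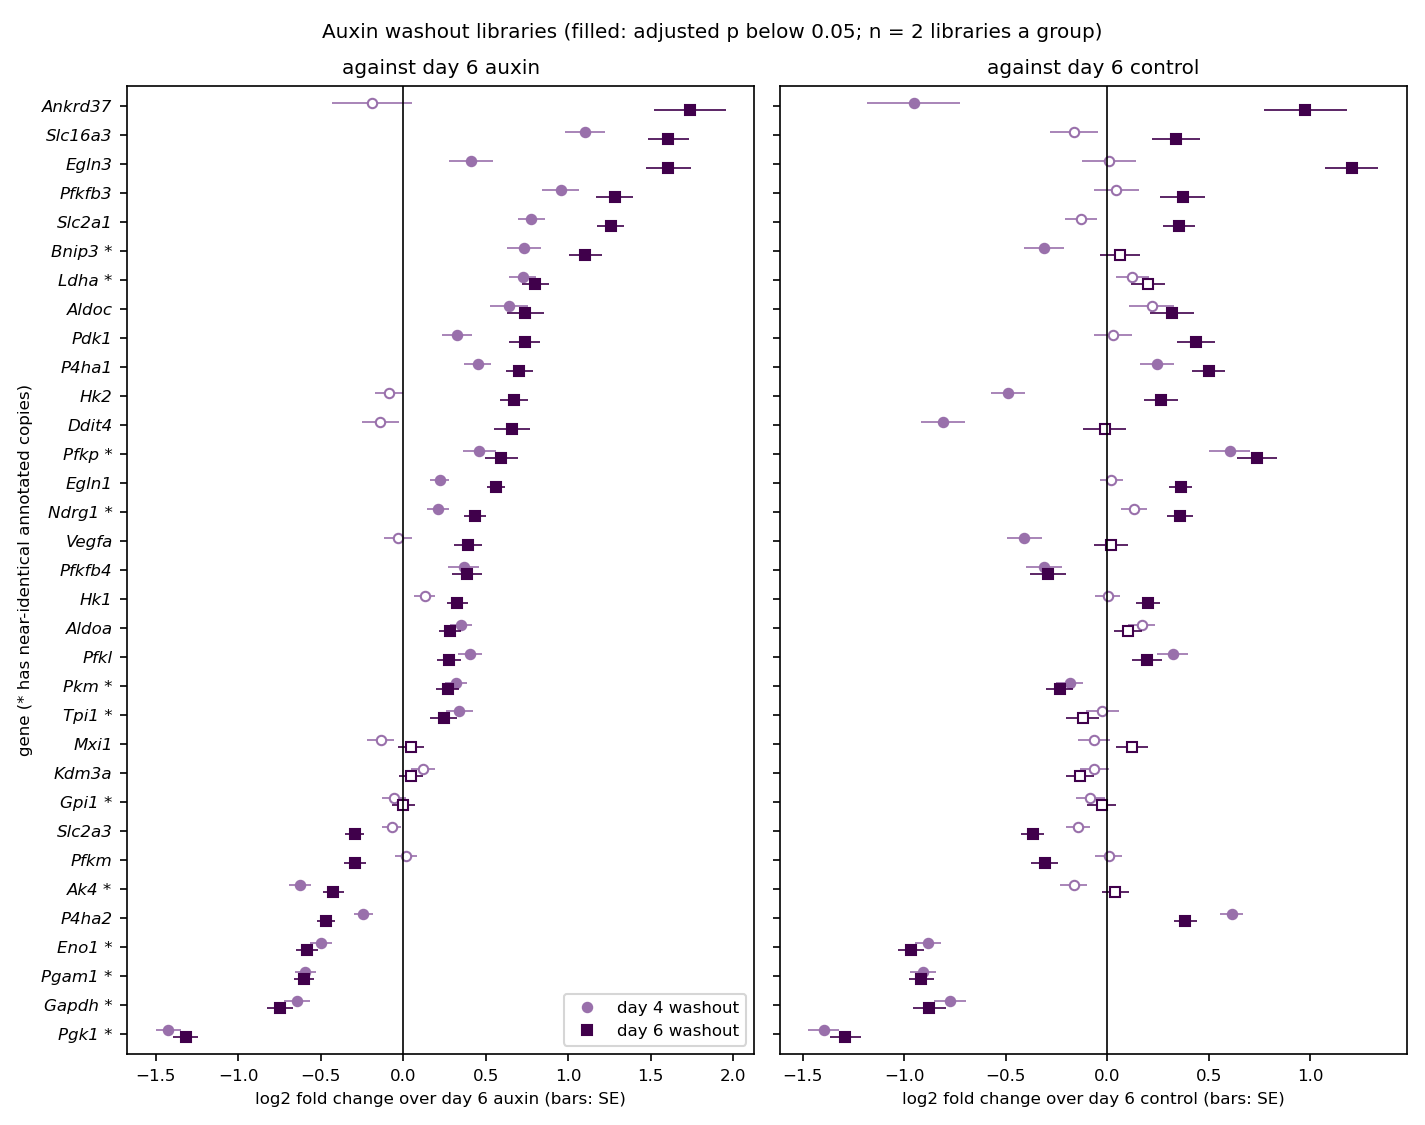
Points give each gene's log2 fold change with standard error in day 4 and day 6 washout cells over day 6 auxin (left) and day 6 control cells (right), ordered by the day 6 washout value over auxin; an asterisk marks genes with near-identical annotated copies or neighbours. Ankrd37, Slc16a3 and Egln3 lie at 1.61 to 1.74 over auxin in day 6 washout cells, and Pgk1 lies at −1.42 and −1.32.

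**Figure D5:**
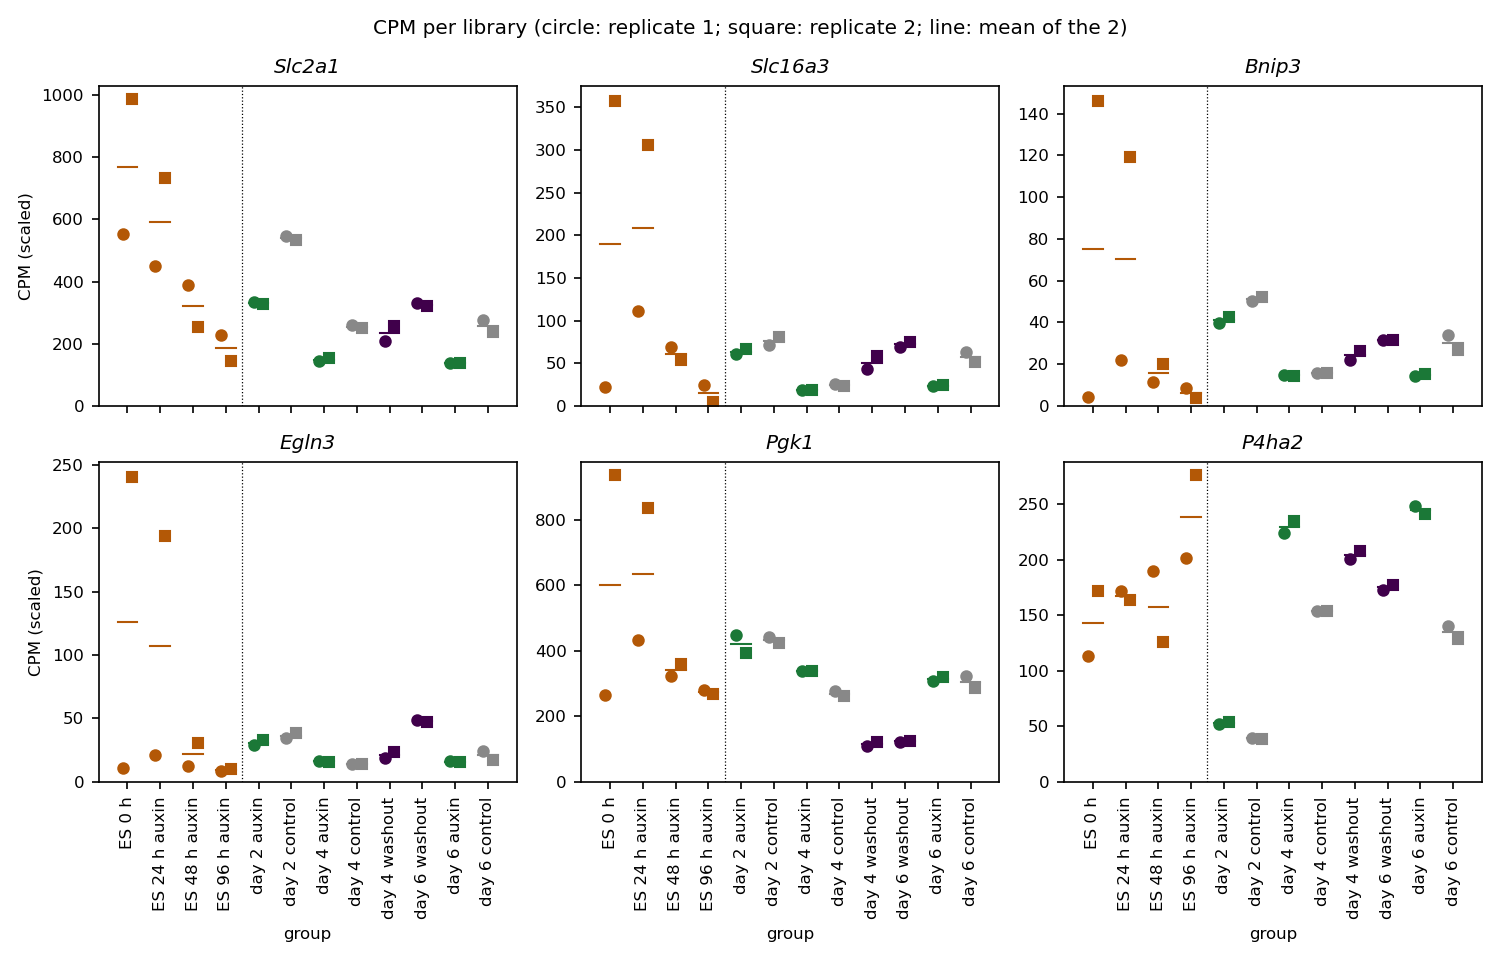
CPM of Slc2a1, Slc16a3, Bnip3, Egln3, Pgk1 and P4ha2 in each of the 24 libraries; circles are replicate 1, squares replicate 2 and lines the mean of the pair, with ES groups left of the dotted line. The ES 0 h replicates of Bnip3 stand at 4.18 and 146 CPM, while the differentiation pairs lie close together.

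Related genes were read from lists chosen with earlier results of these data known. Of 40 other hypoxia response genes, 17 were higher and 2 lower in day 6 than day 4 controls, 7 higher and 15 lower in day 6 auxin than day 6 control cells, and 19 higher and 6 lower in day 6 washout than day 6 auxin cells. Over all genes 13.6% were higher and 13.1% lower, 14% and 15.2%, and 20.4% and 19.9% in these comparisons. With auxin on day 2 and on day 4, 11 of the 40 were higher and 5 lower, against 9.84% and 8.43% of all genes on day 2 and 11.8% each way on day 4. Their medians in the first 3 comparisons were 0.21, −0.039 and 0.23, beside medians near 0 over all genes. Ndufa4l2, a HIF target that restrains mitochondrial complex I, fell by 5.76 on the log2 scale in day 4 over day 2 controls, rose by 2.06 ± 0.38 by day 6, was lower with auxin at −1.25 ± 0.34 and higher after day 6 washout by 1.29 ± 0.35. Adm, the peptide hormone adrenomedullin, was higher with auxin, at 2.21 ± 0.094, 1.86 ± 0.097 and 1.26 ± 0.092 over control with auxin on days 2, 4 and 6. Lox, a collagen crosslinker, was higher with auxin on day 6 at 1.44 ± 0.18, and Epo, erythropoietin, was lower at −1.91 ± 0.60.

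The genes of oxygen sensing itself were counted next. Of 17 hypoxia sensing genes, 6 were higher and 6 lower in day 4 than day 2 controls, against 27.2% and 24.8% of all genes, and 0 higher and 3 lower in day 6 auxin than control cells, against 14% and 15.2%, so that the share of lower genes was near that of all genes. Epas1, which codes for HIF-2 alpha, rose by 2.74 ± 0.083 on day 4, and Hif3a, a HIF subunit with inhibitory forms, fell by 1.13. With auxin on day 6, Hif3a was lower at −0.74 ± 0.15, Arnt2 at −0.32 ± 0.076 and Epas1 at −0.24 ± 0.077. Of 27 other glycolysis genes tested, 9 were higher and 2 lower with auxin on day 6, against 14% and 15.2% of all genes. Among the higher were Pklr, the liver and red cell pyruvate kinase, at 2.25 ± 0.20, and Pdk4, a pyruvate dehydrogenase kinase, at 2.01 ± 0.14. Pgam2 was higher at 1.52 ± 0.15, while Hk3 was lower at −2.25 ± 0.36.

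Pathways that take up the products of glycolysis, or branch from it, were counted in the same way. Over all genes, 27.2% were higher and 24.8% lower in day 4 than day 2 controls, 11.8% were called each way with auxin on day 4, and 14% were higher and 15.2% lower with auxin on day 6. Of 24 tricarboxylic acid cycle genes, 15 were higher and 0 lower with auxin on day 4, led by Pcx, pyruvate carboxylase, at 0.70 ± 0.067, and 6 were higher and 0 lower on day 6. Of 51 nuclear genes of oxidative phosphorylation, 1 was higher and 20 lower in day 4 than day 2 controls, with a median of −0.16, and 9 were higher and 1 lower with auxin on day 4. Of 10 pentose phosphate genes, 4 rose and 4 fell from day 2 to day 4 in controls, and 2 were higher and 2 lower with auxin on day 6. Of 5 MYC and LIN28 genes, 4 rose from day 2 to day 4, with Mycn at 2.43 ± 0.085, and 1 was higher and 3 lower with auxin on day 4.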

How the data were processed

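The authors deposited whole-number read counts per gene for 24 libraries, and 1 unnamed line was left out. Per the submitters' processing notes, STAR, HTSeq, edgeR and the mm10 build were used; their versions, the annotation and the strand setting were not stated in what was used here. Per the labels' protocols, total RNA was sequenced on an Illumina HiSeq4000.

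Counts were scaled by TMM and tested with edgeR 4.0.16 (R 4.3.3, limma 3.58.1), quasi-likelihood F test, Benjamini-Hochberg adjustment over all genes, called at an adjusted p of 0.05. Genes passed filterByExpr (minimum count 10, minimum total 15). ES groups were fitted on 8 ES libraries (20361 genes), differentiation groups on 16 (22587 genes), and day 2 control against ES 0 h on all 24 (23831 genes). DESeq2 1.42.0, a replicate block, no filter, size factors, halved counts, other sets of libraries and each library left out were tried. CPM, a normalised count, has no interval beyond the 2 values shown.

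The members and lists were chosen with earlier results of these data known. Values in every library are given for 21 members covering each role; in each comparison the called members with the largest change, up to 8 each way, are named, and up to 4 genes of a related list. Slc16a3 and P4ha2 values in every library were added after their values were seen. The values of 1 gene of the related lists are not reported here.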

Additional observations from a re-analysis of the deposited data

Results flagged for a closer look

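The effect of auxin differed between days in 9 cases, by the interaction term of edgeR's quasi-likelihood test with Benjamini-Hochberg adjustment over all genes. Relative to day 2, the auxin effect on day 4 was higher by 0.9195 (log2) for Pfkp, 0.4738 for Pfkl, 0.4488 for Pfkm, 0.406 for Slc2a3 and 0.3526 for Pgk1. Relative to day 4, the effect on day 6 was −0.9319 for Bnip3, −0.8155 for Slc16a3, −0.4263 for Tpi1 and −0.36 for Pfkm. Pfkl, Pgk1, Pfkm, Tpi1 and Slc16a3 lost their call without at least 1 library, and in the fit of all 24 libraries 0 of the 9 were called.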

How the results depend on the processing

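Counts of called members moved with the set of libraries fitted and, in ES cells, with the low-count filter. The shares of all genes called in these settings are not given beside them, so the counts describe the settings only. The fit of all 24 libraries called 2 at 48 h and 16 at 96 h in ES cells, 10 in day 4 over day 2 controls, 0 in day 6 over day 4 controls, 0, 0 and 3 with auxin on days 2, 4 and 6, 2 and 4 for day 4 washout over day 6 auxin and control, 4 and 4 for day 6 washout over day 6 auxin and control, and 0 and 0 for the differences between days. A fit of 14 libraries called 4 in day 2 controls over ES 0 h. Without a filter on low counts, 10 and 17 were called at 48 h and 96 h, 22 in day 2 controls over ES 0 h and 8 and 8 for the differences between days. DESeq2's Wald test called 3 at 96 h and 15 in day 2 controls over ES 0 h. The replicate block called 6 at 96 h and 2 for day 6 minus day 4. Replicate numbers name no shared culture; deviations correlated at 0.18 to 0.74 between ES groups and −0.2 to 0.16 between differentiation groups. With plain totals the 96 h replicate median was −0.0301 rather than 0.0966; the cause was not tested. Leaving out 1 library gave 0 to 0 calls at each ES time, 4 to 23 in day 2 controls over ES 0 h, 29 to 29 and 13 to 18 in day 4 and day 6 controls, 9 to 18, 10 to 12 and 15 to 21 with auxin on days 2, 4 and 6, 18 to 23 and 11 to 15 for day 4 washout over day 6 auxin and control, 28 to 30 and 15 to 20 for day 6 washout, and 3 to 13 and 1 to 4 for the differences between days.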
